A study of Mus musculus with 19 samples.

Results

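Keratins are the intermediate filament proteins of epithelial cells. Type I and type II keratins pair with each other and assemble into filaments that run from the nucleus to the cell junctions, where desmosomes and hemidesmosomes anchor them. Simple keratins (Krt7, Krt8, Krt18, Krt19, Krt20, Krt23) are those of single-layered epithelia such as the lining and glands of the uterus, stratified keratins are those of layered epithelia such as skin and vagina, and hair keratins build the hair shaft and nail. In the cycling uterus, ovarian estrogen and progesterone remodel the luminal epithelium, the surface to which the embryo attaches.

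The genes described here are all genes of the deposited count table whose mouse GENCODE symbol is Krt followed by a digit, which gave 55 of 49089 genes. By textbook class they comprised 6 simple, 22 stratified, 16 hair and 9 hair follicle sheath keratins, together with Krt222 (an orphan type I-like gene) and the processed pseudogene Krt8-ps. Krt74, counted with the hair follicle sheath keratins, is annotated as a transcribed unitary pseudogene. In the coordinates of the deposited table (GRCm38), 27 members lay on chromosome 11 between 99232761 and 100269871 and 27 on chromosome 15 between 101349571 and 102032026, and Krt8-ps lay on chromosome 7. Krt18 is the only type I member in the chromosome 15 cluster, 23873 bases from its type II partner Krt8.

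Endometrial RNA came from wild-type C57Bl/6 females aged 8 to 14 weeks, scraped away from the myometrium, and every library was made from a pooled sample. Virgin females collected at estrus, around ovulation, form the group CONT (3 libraries, numbered 1, 2 and 4). Females mated to intact Balb/c males and collected on day 3.5 pc form INT (4 libraries). SVX, SVX_VAS and VAS (4 libraries each) were collected at that same stage, their Balb/c mates having had surgery. Different fields of the labels name different surgeries for the last 3 groups. The sample titles read vasectomised for SVX, seminal vesicle-deficient for SVX_VAS, and seminal vesicle-deficient and vasectomised for VAS, unlike the column prefixes. The group names here are therefore column prefixes only and stand for no surgery. Nothing in the labels gives the number of females in a pool, so only the variation from pool to pool is measured. CONT and INT differ at once in cycle stage, mating, hormone state and the presence of embryos. They also differ in time of day, late evening for CONT and noon for INT in the paper's methods. These cannot be told apart.

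The 19 libraries held 12661266 to 31781270 counts on genes, of which keratin genes took 0.237 to 0.310% in CONT and 0.0371 to 0.162% in INT. A count of 0 allows up to 3 counts, or 0.0944 to 0.237 CPM (counts scaled to the library's total), and this limit covers counting error only. Several libraries stood apart over all tested genes. VAS2 and VAS3 lay at 188.9 and 189.5 on the first principal component (48.9% of the variance), with every other library below 0, and their summed stromal markers were 1871 and 2011 CPM against at least 4906 in the others. INT divided into a pair, INT1 and INT2, on the side of CONT on the second component (38.7% of the variance; scores of at least 9.15), and a pair, INT3 and INT4, far from it (-51.4 and -54.6). VAS1 and SVX_VAS2 lay near the first pair, with second-component scores of 21.3 and 1.33. Values below are CPM with the TMM factors, libraries are named by group and number, and tests cover the 17222 genes that reached 3 CPM in 3 or more of the 19 libraries.

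Of the 55 members, 16 passed this filter: the 6 simple keratins, 6 stratified keratins (Krt5, Krt6b, Krt10, Krt12, Krt13 and Krt80), the hair keratins Krt83, Krt84 and Krt87, and Krt222. Because the filter needs only 3 libraries at 3 CPM, a member could pass through the groups where it is high. Krt23 and Krt222 passed through mated libraries only, with at most 1.43 and 1.51 CPM in CONT. Day 3.5 pc endometrium after intact mating was compared with estrus by edgeR's quasi-likelihood test with Benjamini-Hochberg adjustment, and a gene was called where its FDR was no higher than 0.05 and it changed about 1.5-fold or more in either direction. On this call, 8 of the 16 members changed, 3 higher and 5 lower, where 33.6% of all tested genes were called (20.9% higher and 12.7% lower). The count was 4 without CONT1 and 5 without CONT2, CONT4, INT3 or INT4, shares of 25% and 31.2% beside 28.6% to 32.9% of all genes in those settings. Without INT1 it was 13, a share of 81.2% beside 36.4% of all genes. For 13 of the 16, no INT library lay within the range of CONT or the reverse, against 62.3% of all tested genes. The median logFC of the 16 was -1.63, beside -0.01 over all tested genes.

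**Figure D1:**
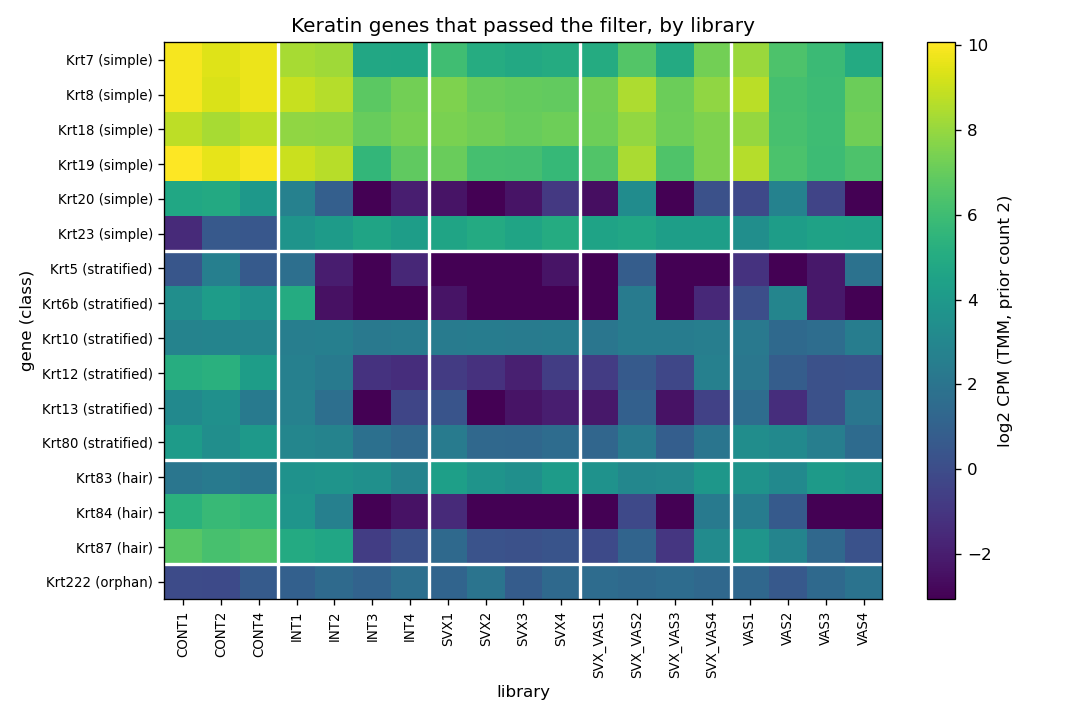
Heat map of the 16 keratin genes that passed the filter (rows, grouped by class) in the 19 libraries (columns, grouped by column prefix), coloured by log2 CPM with TMM factors and a prior count of 2. Krt7, Krt8, Krt18 and Krt19 are brightest in the 3 CONT libraries, Krt23 is darkest there, and INT1 and INT2 look unlike INT3 and INT4.

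At estrus the simple keratins dominated. Per length of exon (RPKM), Krt19, the type I keratin of ductal and luminal epithelia, stood highest in CONT at 506 ± 84.6 (SD, n = 3), followed by Krt8 at 447 ± 87.3 and Krt18 at 278 ± 39.9, the pair that every simple epithelium carries. The means of Krt19 and Krt8 lay within their spread of each other, although Krt19 was above Krt8 in each of the 3 libraries, and Krt8 exceeded Krt18 by a ratio of 1.53 to 1.73 in the 3 libraries. Krt7, a type II keratin of glandular and ductal epithelia, followed at 116 ± 19.4, a value that rests on a deposited exon length of 7055 bases where its longest annotated transcript in GENCODE M21 has 4094. The hair keratin Krt87 came next at 48.0 ± 6.75, above every stratified keratin. Krt84 (18.4 ± 2.88), Krt12 (16.4 ± 5.49) and Krt20 (12.4 ± 3.99) followed well below it and lay within their spread of one another, and Krt23 (0.628 ± 0.415) and Krt222 (0.320 ± 0.120) stood last of the 16. On day 3.5 pc after intact mating, Krt8 (158 ± 102, n = 4), Krt19 (146 ± 122) and Krt18 (135 ± 34.7) had means within their spread, but these means join unlike libraries: Krt8 and Krt19 were above Krt18 in INT1 and INT2 and below it in INT3 and INT4. Krt7 (23.8 ± 23.1) and Krt23 (11.8 ± 2.91) also changed order, with Krt7 at 46.3 and 41.1 RPKM and Krt23 at 8.45 and 11.3 in INT1 and INT2, and Krt7 at 3.99 and 3.78 and Krt23 at 15.5 and 12.0 in INT3 and INT4. In INT1 and INT2 Krt23 was also below Krt87 (17.3 and 14.5 RPKM). Of the summed RPKM of all members, Krt23 took 0.0456% in CONT and 3.51% in INT, and Krt19 took 34.2% and 24.6%.

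Krt23, a type I keratin of simple and glandular epithelia, was the member that rose most. It measured 0.237, 1.43 and 1.28 CPM in CONT1, CONT2 and CONT4, and 13.2, 17.7, 24.3 and 18.7 CPM in INT1 to INT4. Every INT library was above every CONT library, and INT1 and INT2 were the INT libraries nearest to CONT. Its logFC was 4.21 ± 0.43 (SE; edgeR, FDR 4.08e-06). The CONT values rest on 61 counts in all, and leaving out single libraries moved the logFC between 3.76 and 4.65.

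The other 5 simple keratins had lower means on day 3.5 pc, and 3 of them were called, beside 12.7% of all tested genes called lower. Krt7 measured 950, 677 and 832 CPM in CONT, and 327, 290, 28.2 and 26.7 in INT1 to INT4. CONT and INT did not overlap, and INT3 and INT4 lay far below INT1 and INT2. Its logFC was -2.29 ± 0.87 (edgeR, FDR 0.0395).

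Krt8 stood at 954, 641 and 825 CPM in CONT and at 495, 384, 109 and 156 in INT1 to INT4, with a logFC of -1.49 ± 0.60 (edgeR, FDR 0.0486). Krt18, its filament partner, stood at 427, 325 and 415 CPM in CONT and at 233, 224, 130 and 168 in INT, with a logFC of -1.04 ± 0.37 (edgeR, FDR 0.0272). Both fell, without overlap between the groups, and Krt18 showed the narrower range of the pair. The calls of Krt7, Krt8 and Krt18 were each lost on leaving out CONT1, CONT4, INT3 or INT4 (FDR up to 0.0900, 0.127 and 0.0804 over the libraries left out), and those of Krt7 and Krt8 also on leaving out CONT2. Krt8 also lost its call without INT2, under DESeq2's size factors, upper quartile scaling or limma-voom, with no filter on low counts, and on leaving out any 1 SVX library, SVX_VAS1, SVX_VAS3, SVX_VAS4 or VAS4, which enter through the shared estimate of spread. Krt7 also lost its call with no filter and with only the 2 groups fitted.

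Krt19 measured 1071, 765 and 979 CPM in CONT and 522, 398, 49.5 and 115 in INT1 to INT4. The groups did not overlap, but the call missed the threshold (logFC -1.79 ± 0.75, 95% interval -3.37 to -0.21; edgeR, FDR 0.0584). Krt19 passed with a replicate block (logFC -1.92 ± 0.62; edgeR, FDR 0.0213), in DESeq2 (adjusted p 0.0257), and without VAS1 or without SVX1, VAS2 and VAS3. Krt20, best known from intestinal and urothelial epithelium, measured 26.9, 29.6 and 15.2 CPM in CONT and 6.46, 1.75, 0 and 0.139 in INT (logFC -3.53 ± 1.59; edgeR, FDR 0.0775). INT3, at 0 counts, and INT4, at the level of 2 counts, were at or under the limit that a count of 0 allows. Krt20 passed as lower under limma-voom, with only the 2 groups fitted, without SVX_VAS2, without VAS2, and without SVX1, VAS2 and VAS3.

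**Figure D2:**
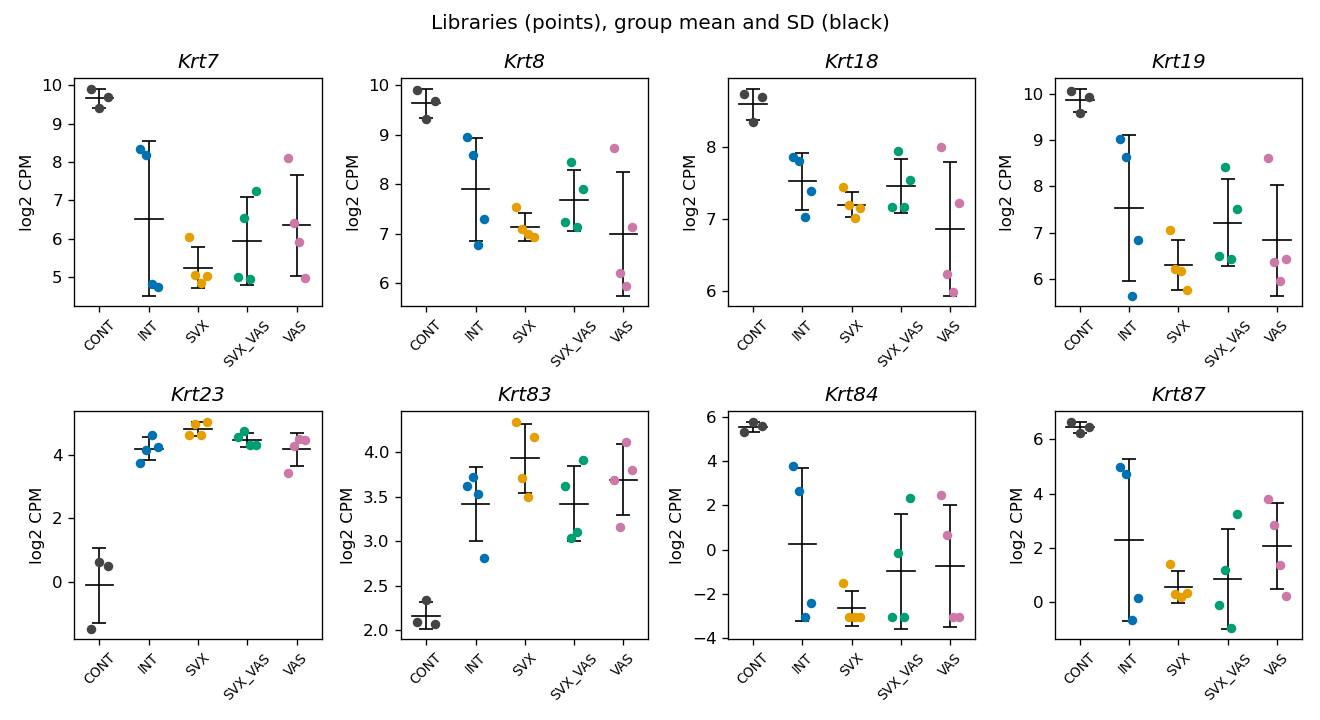
Log2 CPM (prior count 2) of 8 keratin genes in each library (points) of the 5 groups, with the group mean and SD in black. Krt7, Krt8, Krt18, Krt19, Krt84 and Krt87 are highest in all 3 CONT libraries, Krt23 and Krt83 are lowest there, and within INT 2 libraries sit well above the other 2 for Krt7, Krt19, Krt84 and Krt87.

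Over CONT and INT the relation between simple keratins shifted with their level. The ratio of Krt19 to Krt18, both per length, was 1.78 to 1.89 in CONT, 1.69 and 1.34 in INT1 and INT2, and 0.288 and 0.518 in INT3 and INT4. The ratio of Krt8 to Krt18 was 1.53 to 1.73 in CONT, 1.65 and 1.33 in INT1 and INT2, and 0.649 and 0.721 in INT3 and INT4. Krt18 was thus below Krt8 in all CONT libraries and above it in INT3 and INT4. VAS2 and VAS3, with summed simple keratins of 343 and 269 CPM, had ratios of Krt19 to Krt18 of 0.826 and 0.732. Their ratios of Krt8 to Krt18 were 0.760 and 0.752. The ratio of Krt19 to Krt18 therefore did not follow the level in all libraries.

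Of the stratified keratins, 2 of 6 tested members were called, both lower, a share of 33.3% beside the 33.6% of all tested genes called. Krt12, the type I keratin of the corneal epithelium, measured 34.3, 38.1 and 18.9 CPM in CONT and 6.16, 4.89, 0.340 and 0.278 in INT1 to INT4. Its logFC was -3.39 ± 0.95 (edgeR, FDR 0.00800), and it stayed called with each library left out in turn. Exons of the antisense gene A830036E02Rik cover 1007 of its exonic bases on the other strand, and since the strand setting of the counting is not given in the sources used here, reads of the 2 genes cannot be told apart.

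Krt80, a type II keratin found in many epithelia, measured 17.7, 10.8 and 16.6 CPM in CONT and 7.67, 6.83, 3.34 and 2.50 in INT. It fell (logFC -1.56 ± 0.47; edgeR, FDR 0.0120) without overlap of the groups, and INT1 and INT2 were again the higher pair. Its exons share 240 bases with the antisense gene Gm35853.

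Krt10, a suprabasal keratin of the epidermis, varied little: 6.92, 7.14 and 7.32 CPM in CONT and 5.71, 6.08, 4.65 and 5.15 in INT (logFC -0.40 ± 0.21; edgeR, FDR 0.133). Krt13, a keratin of the internal stratified epithelia, measured 8.87, 11.4 and 5.05 CPM in CONT and 6.46, 3.26, 0 and 0.695 in INT, with overlap (edgeR, FDR 0.253). Krt5, the type II keratin of basal cells, measured 1.24, 6.03 and 1.43 CPM in CONT and 3.23, 0.125, 0 and 0.209 in INT (edgeR, FDR 0.365). Krt13 and Krt5 passed as lower under limma-voom.

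Krt6b, an inducible keratin of hair follicles, mucosa and wounded skin, measured 10.6, 18.5 and 12.1 CPM in CONT and 31.8, 0.0626, 0 and 0 in INT. INT1 alone was thus above all CONT libraries while the other 3 INT libraries were at no more than 1 count. With INT1 in the fit its logFC was -0.79 ± 1.82 (edgeR, FDR 0.765). Under limma-voom Krt6b passed as lower with INT1 kept. Of its 50-base words 50.1% also occur in other genes, among them Krt6a and Krt5, so its counts are uncertain.

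INT1 and CONT2 were also the highest libraries of Krt14, Krt6a and Krt16, which did not pass the filter, but not of the basal keratins Krt15 and Krt17, which peaked in VAS4 and VAS1. Krt14, the type I partner of Krt5, reached 10.5 CPM in CONT2 and 3.83 in INT1, against 1.36 or less in the other libraries. Krt6a reached 6.10 in CONT2 and 5.11 in INT1 against at most 1.06 elsewhere, and Krt16 reached 0.893 and 0.902 against at most 0.278. INT1 also had the highest summed smooth muscle markers, 1275 CPM against at most 823 in the other libraries, while CONT2 had 397. The cell makeup of INT1 was not tested. With CONT2 and INT1 both left out, an alternative chosen after the data were seen, Krt6b passed as lower (logFC -8.63 ± 2.63; edgeR, FDR 0.0155) and Krt5 did not (FDR 0.172). With INT1 alone left out, both passed as lower, Krt6b at a logFC of -8.92 ± 2.48 (edgeR, FDR 0.00762) and Krt5 at -4.70 ± 1.88 (FDR 0.0499). Krt19, Krt20 and Krt87 also passed as lower without INT1, at an FDR of 0.0266, 0.0311 and 0.0492. Since INT1 was the highest library of Krt6b, the larger fall of Krt6b without it was set by the choice of library.

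The hair keratins divided. Krt87, a type II hair keratin, lies 1176 bases from Krt7 on the opposite strand, and measured 100.2, 75.6 and 87.2 CPM in CONT and 31.6, 26.5, 0.510 and 0.973 in INT1 to INT4. The groups did not overlap and INT split as for Krt7, with the test short of the threshold (logFC -2.56 ± 1.13; edgeR, FDR 0.0736). Krt87 passed as lower in DESeq2 and limma-voom. Krt84, a type II keratin of tongue papillae and nail, measured 39.3, 54.1 and 48.2 CPM in CONT and 13.5, 6.20, 0 and 0.0695 in INT (logFC -3.26 ± 1.59; edgeR, FDR 0.103). It passed as lower under limma-voom and with only the 2 groups fitted.

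Krt83, a type II keratin of the hair cortex, went the other way. It measured 4.14, 4.93 and 4.07 CPM in CONT and 12.2, 13.1, 11.4 and 6.88 in INT, so that every INT library exceeded every CONT library and the pair INT1 and INT2 did not stand apart from INT3. It rose (logFC 1.31 ± 0.29; edgeR, FDR 0.00159) and stayed called in every alternative run. Of its 50-base words 22.1% also occur in other genes, namely Krt86, Krt81 and Krt87, and the treatment of reads that map to several places is not given in the sources used here. For Krt87 the share was 36.9%.

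Krt222, which encodes a short type I-like protein, rose from 0.828, 0.821 and 1.51 CPM in CONT to 1.80, 2.69, 2.04 and 3.27 in INT (logFC 1.24 ± 0.36; edgeR, FDR 0.0106). The groups did not overlap, at 57 counts in CONT and 150 in INT. Its call was lost on leaving out CONT1 or CONT2.

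**Figure D3:**
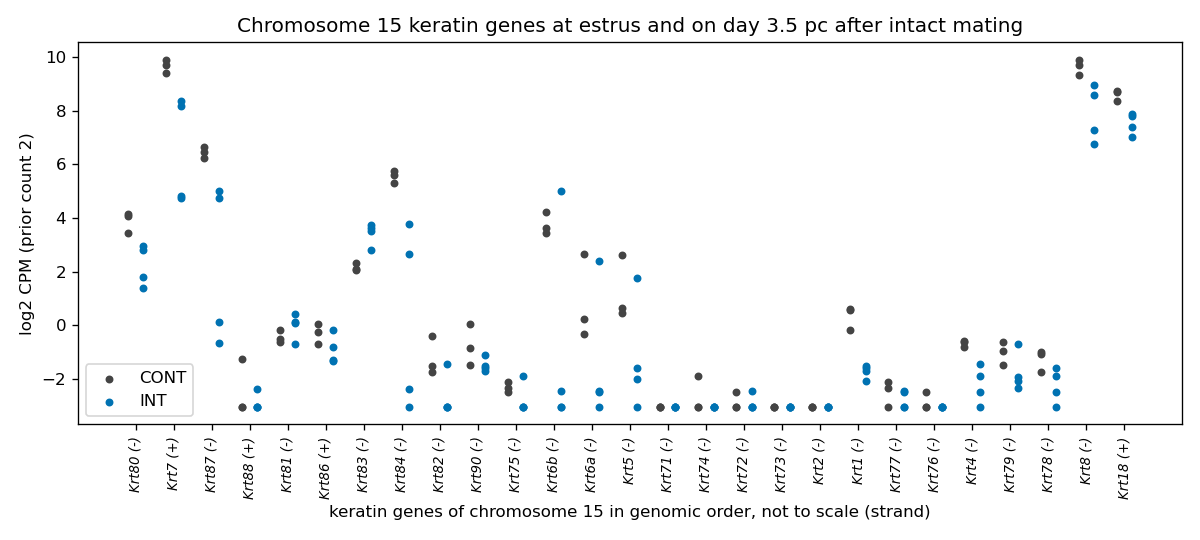
Log2 CPM (prior count 2) of the 27 keratin genes of chromosome 15 in genomic order, not to scale, in the CONT (black) and INT (blue) libraries. Krt7 and its neighbour Krt87 show the same split of INT into 2 pairs, Krt83 is higher in all INT libraries, and genes from Krt82 to Krt78 mostly read below 1 on this scale, apart from Krt6b, Krt6a and Krt5.

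For 36 of the 55 members a promoter window was found in RefSeq (GRCm38.p6), and the 250 bases before each listed start site were searched on both strands for motifs spelled out here. The TATA box letters TATAAA occurred in 17 of the 36 windows, against 13.0% of 27025 promoters of the same length. By class they occurred in 7 of 8 hair follicle sheath, 6 of 9 hair, 3 of 14 stratified and 1 of 5 simple keratins. The palindromic estrogen response element (GGTCA, any 3 bases, TGACC) occurred in 0 of 36 windows (0.0629% of all promoters), the AP-1 letters TGANTCA in 1 (6.87%), the GC box GGGCGG in 2 (32.9%) and a spaced pair of progesterone receptor core letters (ACA, any 3 bases, TGT) in 1 (5.91%). A match is a description of letters, and an absent match says only that those letters are not in this window. Of the 10 tested members with a window 4 held TATAAA (Krt10, Krt12, Krt20 and Krt84), and it was absent from Krt23 and also from Krt5, Krt7, Krt8, Krt13 and Krt18. Of the members that rose, Krt23 alone has a window here, so the letters were not compared with the direction of change. The listed starts of Krt7 and Krt8 lie 1360 and -140 bases from those of GENCODE M21, so their windows are not those of the GENCODE starts. The upstream windows of 3 type I genes of one stretch of chromosome 11 are shown as examples, Krt12 and Krt20, with TATAAA 29 bases before the listed start, and Krt23, the largest rise, without it. Capitals mark TATAAA, all 3 are read 5′ to 3′ on the minus strand, at chr11:99422260-99422509, chr11:99438154-99438403 and chr11:99493138-99493370 in that order, and 17 bases that GENCODE places in the first exon of Krt23 are left out.
Krt12: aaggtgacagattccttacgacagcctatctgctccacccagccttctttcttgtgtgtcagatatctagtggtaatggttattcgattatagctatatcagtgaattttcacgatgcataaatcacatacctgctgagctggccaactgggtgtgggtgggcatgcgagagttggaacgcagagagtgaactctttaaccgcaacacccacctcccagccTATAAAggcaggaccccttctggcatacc
Krt20: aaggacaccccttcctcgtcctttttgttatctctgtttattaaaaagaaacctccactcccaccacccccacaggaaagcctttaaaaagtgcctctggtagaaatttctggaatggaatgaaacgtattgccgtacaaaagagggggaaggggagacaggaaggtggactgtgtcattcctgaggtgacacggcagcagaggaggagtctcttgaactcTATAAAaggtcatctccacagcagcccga
Krt23: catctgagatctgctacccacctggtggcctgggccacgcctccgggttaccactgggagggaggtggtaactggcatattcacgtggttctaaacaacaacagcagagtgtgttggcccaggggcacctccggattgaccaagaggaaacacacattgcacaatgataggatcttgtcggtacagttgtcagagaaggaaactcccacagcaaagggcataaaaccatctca

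The split of INT moved with some other genes of the epithelium. The summed CPM of the 6 simple keratins was 2439 to 3429 in CONT, 1596 and 1316 in INT1 and INT2, and 341 and 484 in INT3 and INT4. The summed CPM of 14 epithelial markers that are no keratins, headed by Epcam and Cdh1, was 5486 to 6104 in CONT, 3470 and 2557 in INT1 and INT2, and 1164 and 1388 in INT3 and INT4. The ratio of the former sum to the latter was 0.445 to 0.562 in CONT, 0.460 and 0.515 in INT1 and INT2, and 0.293 and 0.349 in INT3 and INT4. Of the libraries near INT1 and INT2, VAS1 had 2507 CPM of the markers and a ratio of 0.540. SVX_VAS2 had 3959 CPM but a ratio of 0.269, so the ratio did not follow the marker level in all libraries. The 9 glandular markers did not divide by the pairs of INT, summing to 185 and 136 CPM in INT1 and INT2 and to 504 and 154 in INT3 and INT4. Fewer epithelial cells and less keratin RNA per cell cannot be told apart in such tissue samples.

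The summed CPM of 14 estrogen-induced epithelial genes was 13457 to 15187 in CONT, 9907 and 4028 in INT1 and INT2, and 236 and 289 in INT3 and INT4. One of them, lactotransferrin (Ltf), ranged from 27.3 to 2143 CPM within INT. The summed CPM of 10 progesterone-induced epithelial genes was 231 to 255 in CONT, 1754 and 1564 in INT1 and INT2, and 1912 and 3138 in INT3 and INT4. The part of cell makeup or hormone state in the keratin values was not tested. With INT1 and INT2 left out, an alternative chosen after the data were seen, 14 of the 16 members were called, beside 38.9% of all tested genes in that setting, which kept all 8 and added Krt6b, Krt13, Krt19, Krt20, Krt84 and Krt87 as lower. The logFC of Krt7 was then -4.90 ± 0.99 and that of Krt87 -6.89 ± 1.44. INT1 and INT2 held the higher INT values of Krt7 and of the added members. More calls and larger falls without them were thus set by the choice, and lend the falls no support.

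**Figure D4:**
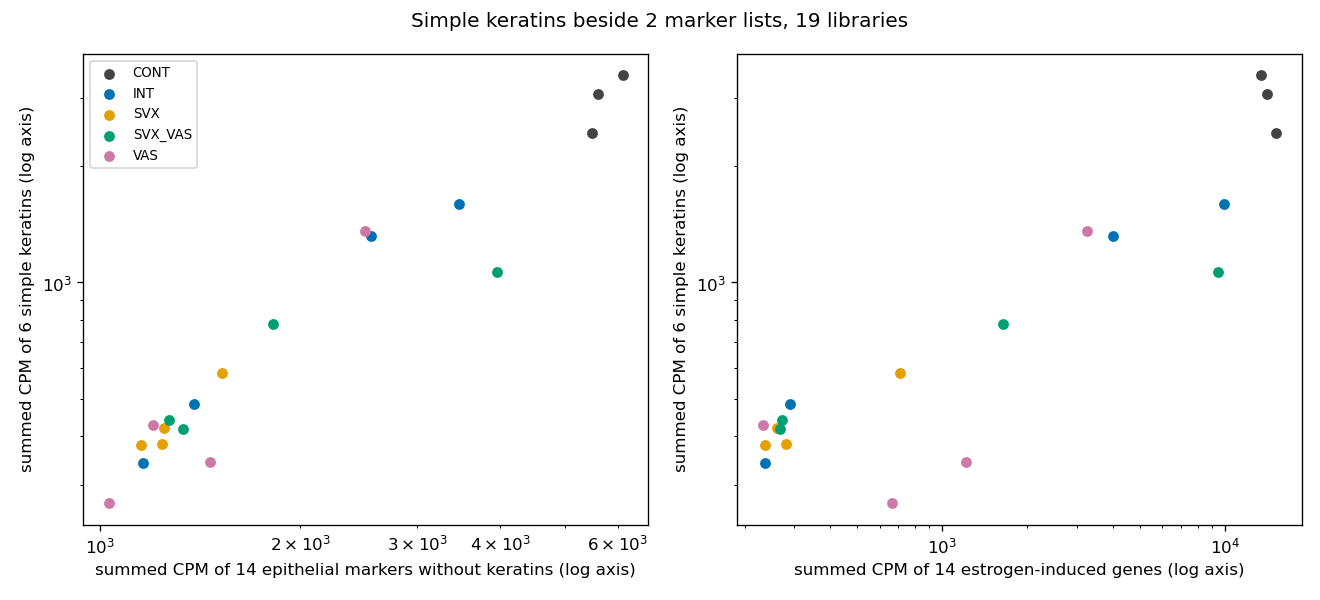
Summed CPM of the 6 simple keratins (vertical, log axis) against the summed CPM of 14 epithelial markers without keratins (left, log axis) and of 14 estrogen-induced epithelial genes (right, log axis), 1 point per library, coloured by group. The 3 CONT libraries lie at the upper right with 2439 to 3429 CPM of simple keratins, and INT3 and INT4 lie at the lower left with 341 and 484.

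Markers of tissues in which the other classes are typical gave the following counts, to be read beside 20.9% of all tested genes higher and 12.7% lower. Of 13 markers of stratified squamous epithelium, 6 were tested and 3 fell (Serpinb5 logFC -2.77, edgeR, FDR 0.0336, the largest fall; Fat2 was highest at 0.14, not called), with a summed level of 207 to 233 CPM in CONT and 12.5 to 93.5 in INT. Trp63, the defining transcription factor of that epithelium, was 0.603 to 1.14 CPM in CONT and 0.827 to 2.63 in INT. Of 10 hair shaft markers, 4 were tested and 1 rose, the Wnt effector Lef1, while Padi3 had the lowest value (-3.06, edgeR, FDR 0.113), and the list summed to 56.3 to 78.1 CPM in CONT and 83.0 to 140 in INT. Hoxc13, which drives hair keratins in the follicle, had 0 counts in all 19 libraries, and Foxn1 was at or below 0.155 CPM in each. Of 8 mesothelium markers, 1 rose (Wt1), and Msln had the lowest value (-0.78, edgeR, FDR 0.0898). Whether cells of these kinds contributed to the keratin counts was not tested.

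Lists of genes of the junctions that anchor keratin filaments, and of related genes, gave the following counts, beside 12.7% of all tested genes lower and 20.9% higher. Of 9 tested desmosome genes 8 fell and none rose, with a median logFC of -1.70. They included desmoplakin (Dsp, logFC -1.74), which links keratin filaments to the junction, plakoglobin (Jup, -1.52) and the desmosomal cadherins Dsc2 (-2.46, edgeR, FDR 0.00724) and Dsg2 (-1.70), and Dsg3 was the gene not called. Of 10 tested genes in the list of hemidesmosomes and plakins, with a median logFC of -0.53, 4 fell (Evpl, Itgb4, Itga6 and Fermt1, from -1.90 to -1.13) and 1 rose, dystonin (Dst, 0.69, edgeR, FDR 2.19e-04). Fermt1, an integrin adapter, is in that list but is no hemidesmosome or plakin gene. Of 4 tested cornified envelope genes, the transglutaminase Tgm1 (1.14) and Sbsn (0.76) rose, and Sprr1a had the lowest value (-1.81, edgeR, FDR 0.332).

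Of 9 tested intermediate filament genes that are not keratins, lamins included, 5 rose and none fell: vimentin (Vim, 1.46), desmin (Des, 0.85), nestin (Nes, 1.97, edgeR, FDR 2.46e-05), synemin (Synm, 0.67) and Bfsp1 (1.07). Over all tested genes 20.9% were higher and 12.7% lower, beside which these counts and those of the next lists stand. Lmnb1, with the lowest value of them (-0.46), was not called. Beside them, 6 of 9 stromal markers rose, with Hoxa11 highest and Dcn lowest (-0.10, not called), as did 6 of 6 endothelial markers, from Vwf (1.43) to Emcn (2.44). Of 6 smooth muscle markers 1 rose, and the extremes Myh11 (0.93) and Actg2 (-0.23) were not called. Vim is also among the stromal markers and Des among the smooth muscle markers, so these counts are not separate from those of the filament genes. Of 15 tested transcription and splicing regulators of epithelial and keratin genes 9 fell, from Elf3 (-2.41, edgeR, FDR 0.0399) to Junb (-0.61), and 1 rose, Cebpa (1.36). Esrp1, Elf3, Ehf and Grhl2 are in this list and among the 14 epithelial markers, of which 10 fell in all. Among these markers Cldn3 had the highest value (0.02, not called). Of 9 glandular markers 6 rose, Ttr the most (6.64), and Sox9 fell, and Lif, the lowest (-1.25), was not called. Of 10 progesterone-induced genes 9 rose, Acod1 the most (8.31), and Gata2 was the gene not called. Of 11 estrogen-induced genes 3 fell, Aqp5 the most (-2.76), and Sprr2b, the highest (0.82), was not called.

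The 3 groups mated with modified males were set against the same CONT libraries, so the 4 comparisons with estrus share their controls and are given side by side. For SVX, 15 of 16 members were called, where 41.6% of all tested genes were, with 3 higher (background 23.1%) and 12 lower (18.5%). For SVX_VAS 12 members were called (background 38.6%), 3 higher (22.2%) and 9 lower (16.5%). For VAS 11 members were called (background 40.6%), 3 higher (23.3%) and 8 lower (17.3%). No overlap with CONT was found for 16, 15 and 14 of the 16 members in that order, against 70.9%, 67.5% and 55.1% of all tested genes. The members called higher were Krt23, Krt83 and Krt222 in each of them. The median logFC of the 16 was -3.92 in SVX, -2.59 in SVX_VAS and -2.11 in VAS, beside -0.01, -0.02 and -0.07 over all tested genes.

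**Figure D5:**
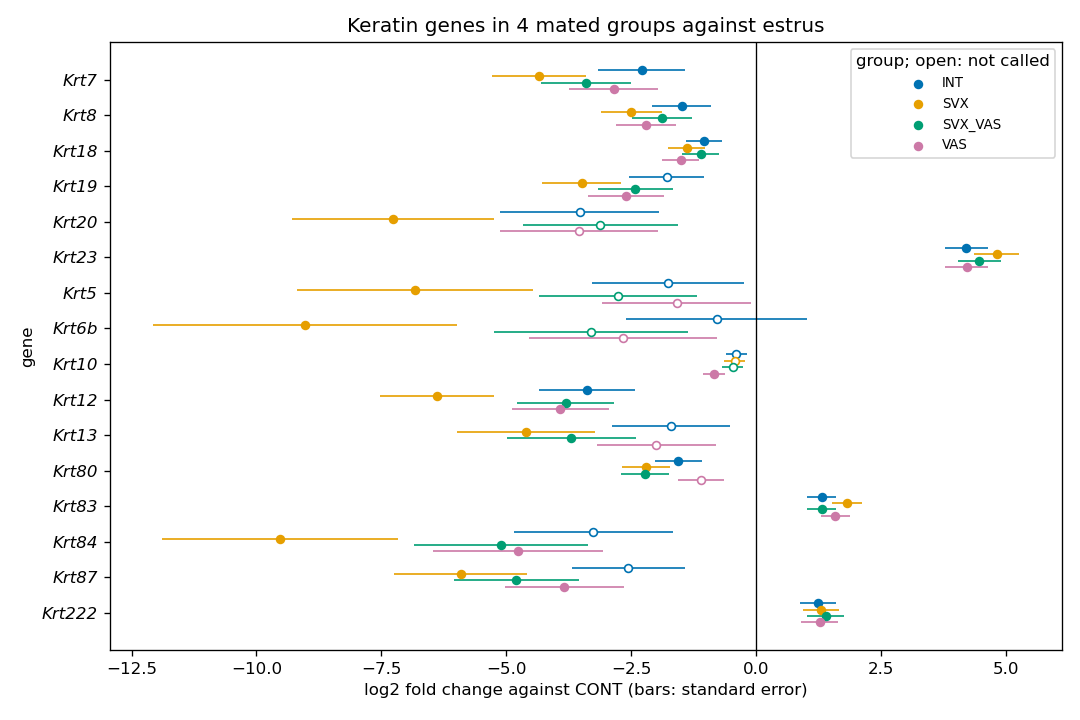
Log2 fold change against CONT (horizontal) of the 16 tested keratin genes in INT, SVX, SVX_VAS and VAS, from 1 edgeR fit, with bars for the standard error, filled points for called genes and open points for genes not called. Krt23, Krt83 and Krt222 lie right of 0 in all 4 groups and every other gene left of 0, with the longest bars for Krt6b, Krt84, Krt5 and Krt20.

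Krt23 was 24.5, 31.2, 24.2 and 32.7 CPM in SVX1 to SVX4, 23.4, 26.4, 19.5 and 19.4 in SVX_VAS1 to SVX_VAS4, and 10.5 to 22.5 in VAS. Its logFC against CONT was 4.81 ± 0.44, 4.47 ± 0.44 and 4.21 ± 0.43 in that order. Every library of these groups exceeded all 3 CONT libraries, and VAS1 was the lowest. Krt83 was 11.2 to 20.1 CPM in SVX, 8.10 to 14.9 in SVX_VAS and 8.80 to 17.2 in VAS.

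Krt7 was 66.0, 33.0, 28.8 and 32.7 CPM in SVX1 to SVX4, 32.0, 93.0, 30.7 and 152 in SVX_VAS1 to SVX_VAS4, and 276, 85.5, 60.1 and 31.1 in VAS1 to VAS4. In each of these groups a part of the libraries lay near INT3 and INT4 (28.2 and 26.7 CPM) and others between them and CONT, and VAS1 was near INT1 and INT2. Krt87 divided the same libraries, at 1.02 to 2.55 CPM in SVX, at 2.15 and 9.43 in SVX_VAS2 and SVX_VAS4 against 0.816 and 0.393 in the other two, and at 13.8 in VAS1. The estrogen-induced genes summed to 9416 and 1641 CPM in SVX_VAS2 and SVX_VAS4 against 271 and 267 in SVX_VAS1 and SVX_VAS3, and to 3262 CPM in VAS1.

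Several estrus-high members had next to no counts in SVX. Krt84 had 3 counts in SVX, all in SVX1, against 2818 in CONT, a ratio of CPM of 865 with an exact counting interval of 296 to 4195. These intervals, on counts summed over libraries, cover counting error only and not the spread between libraries. Krt6b and Krt5 had 1 count each in SVX, with ratios of 790 (141 to 31228) and 192 (34.1 to 7634). DESeq2 gave no adjusted p for either, and in edgeR the call of Krt6b was lost without SVX1 and that of Krt5 without CONT2, SVX2, SVX3 or SVX4. Krt12 was 0.145 to 0.498 CPM (logFC -6.39 ± 1.14; edgeR, FDR 1.78e-04) and Krt20 0 to 0.427 CPM (logFC -7.26 ± 2.02; edgeR, FDR 0.00568). The 1 member not called in SVX was Krt10, at 5.18 to 5.39 CPM.

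VAS2 and VAS3, the libraries apart on the first component, had the lowest values of all 19 libraries for Krt18 (75.3 and 63.2 CPM), Krt8 (73.8 and 61.2) and Krt10 (2.59 and 3.03), and their ratios of simple keratins to the 14 epithelial markers, 0.234 and 0.260, were the lowest as well. Their TMM factors, 1.29 and 1.33, were the highest, with 1.02 in SVX4 next. Scaling thus lowered their CPM more than those of other libraries, while the ratios do not depend on it. Krt7 was higher in VAS2 and VAS3 than in VAS4, and its ratio to Krt8 per length was 0.296 and 0.251 against 0.0572 in VAS4 and 0.255 to 0.271 in CONT. With SVX1, VAS2 and VAS3 left out, VAS had 6 called members in place of 11, or 37.5% of those tested beside 36% of all genes in that setting: Krt7, Krt8, Krt10, Krt19, Krt84 and Krt87 lost their calls and Krt20 gained one. That setting leaves VAS with 2 libraries, and in it the logFC of Krt7 was -2.38 ± 1.16, that of Krt87 -3.51 ± 1.54 and that of Krt84 -4.04 ± 1.95 (edgeR, FDR from 0.0703 to 0.102). For the other lost calls, the smallest fall over all alternatives except single libraries left out was -0.45 for Krt10, under the 1.5-fold cutoff. It was -1.49 for Krt8 and -1.95 for Krt19. The main fit gave -0.85, -2.21 and -2.60 for Krt10, Krt8 and Krt19.

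Against INT itself, edgeR called no member and no other gene in SVX, SVX_VAS or VAS (0% of 17222 genes in each). That count rests on single libraries in VAS, where 578 genes were called without VAS1 and 135 without VAS4, none of them a member. No member was free of overlap between a set and INT (background 2.61%, 1.72% and 1.24%). At an unadjusted p below 0.05 there were 7, 0 and 1 of the 16 members, beside 4.35%, 1.97% and 10.6% of all tested genes. DESeq2, which gave an adjusted p for 14 of the members, and limma-voom also called 0 members, while over all genes DESeq2 called 3, 2 and 0 and limma-voom 0, 0 and 1663 in SVX, SVX_VAS and VAS. The intervals are wide: for the logFC of SVX against INT that of Krt6b, the widest, ran from -14.6 to -1.88, and that of Krt10, the narrowest, from -0.45 to 0.39. Of the 424 counts of Krt6b in INT 423 were in INT1, and SVX had 1 count. Its interval thus rests on INT1 and does not set the INT libraries as a group apart from SVX. These comparisons do not show that keratin levels were alike in the 4 mated groups.

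The 39 members that were not tested comprised 16 stratified, 13 hair and 9 hair follicle sheath keratins and Krt8-ps. No count was found in any library for 7 of them (Krt31, Krt33b, Krt34, Krt40, Krt42, Krt71 and Krt73), and 18 others stayed below 0.5 CPM in every library. The remaining 14 reached 0.5 CPM somewhere. Krt15, a basal keratin of hair follicle bulge cells, was highest in VAS4 at 6.38 CPM, where Krt5 (3.65 CPM) also had its highest value of the mated females and Krt13 (4.21) its second highest after INT1. Krt25, a keratin of the inner root sheath, was highest in SVX_VAS2 and VAS2, at 2.59 and 2.04 CPM, against at most 0.387 elsewhere.

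Krt1, the epidermal partner of Krt10, was 0.769 to 1.39 CPM in CONT and 0.113 to 0.226 in INT. Krt81, a hair keratin, was 0.528 to 0.769 CPM in CONT, 0.487 to 1.20 in INT and 1.23 to 2.06 in SVX. Krt86, Krt82, Krt90, Krt17, Krt4 and Krt79 peaked between 0.643 and 1.34 CPM. Krt8-ps, which shares sequence with 26.9% of the 50-base words of Krt8, peaked at 0.980 CPM in CONT4, far below Krt8 in every library.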

How the data were processed

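Endometrial RNA of 19 pooled samples was sequenced from stranded total RNA libraries. The authors trimmed adapters, aligned reads with STAR to GRCm38, used featureCounts to count reads on genes and deposited these counts as they were. The submitters' processing notes also name FastQC, limma and edgeR; strand setting, treatment of multi-mapping reads and annotation release are not given in the sources used here. The deposited gene positions matched GENCODE M21 for 36 of the 55 members. Symbols were found for 48435 of 49089 genes.

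Counts were scaled by TMM and fitted with edgeR 4.0.16 in R 4.3.3 (quasi-likelihood, all 19 libraries, 5 groups, no replicate block), with Benjamini-Hochberg adjustment over 17222 genes. RPKM used the deposited exon lengths. Alternatives were DESeq2 1.42.0 or its size factors, upper quartile scaling, limma-voom (limma 3.58.1), other filters, the 2 groups alone, no logFC cutoff, a replicate block, libraries that had stood apart left out and each library left out in turn. Pairs of libraries left out in INT, or in CONT and INT, were chosen after seeing the data. The fit was also run on simulated data in which all libraries of a group had the same expected CPM. That run held no split like that of INT and no libraries like VAS2 and VAS3, so it says nothing of calls that rest on these. Figures were drawn in Python 3.11.15.

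The members, classes and lists were chosen with earlier results of these data known. Every member that passed the filter is named, those not tested are named from 0.5 CPM, or where they had no count, and from each list the largest and smallest changes and the defining markers are named. Further list members were named after their values were seen. Replicates are pooled samples, so p-values measure the spread between pools.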

Additional observations from a re-analysis of the deposited data

Results flagged for a closer look

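Within groups of 4 libraries, a keratin value was singled out where the gap between the most extreme library and the next was large against the range of the group (Dixon's test at 95%). This was so in 7 of 64 groups searched. Chance gives about 1 in 20 groups, but the number found cannot be read against that share, since in 4 of the 7 the other 3 libraries had no count and the measure is then 1 by construction. Krt7 was 66.0 CPM in SVX1 against 28.8 to 33.0 in the other SVX libraries, and Krt87 was 2.55 CPM in SVX1 against 1.02 to 1.14. Krt6b was 31.8 CPM in INT1 against 0 to 0.0626 in the other INT libraries, and Krt5 was 1.65 CPM in SVX_VAS2, the other 3 libraries of that group having no count. The other 3 values lie at or under the limit that a count of 0 allows, and every other library of their group had no count: Krt84 at 0.232 CPM in SVX1 (3 counts), Krt6b at 0.0774 CPM in SVX1 and Krt5 at 0.0712 CPM in SVX4 (1 count each). No cause was tested.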

How the results depend on the processing

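For INT against CONT, 8 keratins were called, beside 33.6% of all genes. With limma-voom there were 13 (beside 35.8%), and with INT replicates 1 and 2 left out 14 (beside 38.9%). Leaving out single libraries gave 4 to 13: 4 without CONT1, 5 without CONT2, CONT4, INT3 or INT4, and 13 without INT1 (beside 36.4% of all genes). The share of members called was 25% without CONT1, where 28.6% of all genes were called, and 31.2% in the settings with 5, where 29.5% to 32.9% were, so in these settings it was not set apart from all genes. Krt12, Krt23, Krt80 and Krt83 stayed called throughout, and the cause of the other changes was not tested. For VAS against CONT the count fell from 11 to 6 without SVX1, VAS2 and VAS3. Leaving out single libraries gave 14 to 15 for SVX, beside 37.6% to 42.5% of all genes. It gave 9 to 15 for SVX_VAS, where 38.6% of all genes were called in the main fit. The other counts lay within 1.5 times of those reported. No single keratin changed direction against CONT in any alternative. Of their values, 1045 kept their side of the threshold, 50 lost their call and 49 gained one, leaving out Krt5 and Krt6b in DESeq2, which gave them no adjusted p. This tally holds single libraries left out of the 2 compared groups only. Leaving out a single library of another group moved further calls, among them Krt8 and Krt19 in INT and Krt80 in VAS. Against INT, 0 of 302 values in each comparison passed, while 12 (SVX), 14 (SVX_VAS) and 13 (VAS) of 16 members changed sign in some alternative. In no comparison were the deviations of same-numbered libraries correlated above 0.1 in every pair (correlations from -0.69 to 0.58), although every pair was positive in VAS against CONT and VAS against INT, so the numbers were not taken to pair libraries. A replicate block gave 9 (Krt19 added), 15, 11 and 11 called keratins against CONT (Krt84 lost in SVX_VAS) and 0 against INT. Of all genes 32.6% were called in INT and 40.2% in SVX with the block. For SVX_VAS and VAS the main fit called 38.6% and 40.6% of all genes. The 39 members not tested failed the rule of 3 CPM in 3 libraries. With no filter, 48 members were tested and 8, 20, 17 and 15 were called against CONT in INT, SVX, SVX_VAS and VAS, or 16.7%, 41.7%, 35.4% and 31.2% beside 19.6%, 25.3%, 23.0% and 25.4% of all genes.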
